A study of Mus musculus with 2 samples.

Results

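Cholesterol and fatty acid synthesis was described here across 35 listed genes: the enzymes from acetyl-CoA to cholesterol, the sterol sensors and transcription factors that control them, the enzymes that make and modify long-chain fatty acids, and 2 sterol efflux transporters. The genes were chosen by name, and a gene was followed through the array probe sets that the platform annotation pairs with its symbol alone. This found 34 of the 35 genes, with 79 probe sets, among 18193 genes on the array. The expression of Acat2, the cytosolic acetoacetyl-CoA thiolase, was not analysed here, and only its promoter is used. The samples were cells sorted by fluorescence from embryos of Col2a1-Venus-Tg mice on a C57Bl/6 background, in which the reporter Venus, a modified green fluorescent protein, marks chondrocytes, the cells that make cartilage. The Venus-positive and the Venus-negative fraction came from these same transgenic mice, and 1 Affymetrix Mouse Genome array was hybridised per fraction. The sources used here do not give the embryo stage, the number of embryos or the sorting gates. With 1 array per fraction there is no replicate error and no test, and every difference below describes this pair of arrays.

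The sort could be checked on markers of the labelled cells. All 12 chondrocyte markers examined were higher in the Venus-positive fraction, from 4.73-fold for Sox9 (1601 against 338) to 79.5-fold for Matn1 (4478 against 56.3). The collagen gene Col9a1 was at 10902 against 1762, and Cnmd, chondromodulin, at 7343 against 176. The Venus-negative fraction was a mixture: all 10 macrophage markers, 7 of 7 measured skeletal muscle, 7 of 7 measured endothelial and 7 of 8 epidermal markers were at least 2-fold higher there. The muscle genes Actc1 (2268 in Venus-negative, 164 in Venus-positive cells) and Myog (645 and 40.9) and the endothelial genes Emcn (162 and 30.2) and Plvap (153 and 22.3) are examples. In such a mixture, fewer cells of a type and less RNA per cell cannot be told apart.

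Cholesterol is built from acetyl-CoA through mevalonate, squalene and lanosterol. The SREBP transcription factors, held in the endoplasmic reticulum by Scap and Insig proteins when sterols are plentiful, switch on this pathway and fatty acid synthesis together when sterols fall. LXR nuclear receptors act in the opposite situation and raise the efflux transporters Abca1 and Abcg1. In cartilage, sterols are also needed for hedgehog signalling, since hedgehog ligands carry cholesterol and the receptor system senses sterols.

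Values are MAS5 signals, which are linear array intensities in arbitrary units, and they can be compared between the arrays for a probe set but not between probe sets. Genes counted as measured when any of their probe sets came up to a floor of 22.5, the median of all signals, on either array. Where a gene had several, it was represented by the set whose log2 signal, averaged over the arrays, was highest. All 34 genes were measured, with both signals at 52.3 or above, so none of their folds is a bound. The Venus-positive array was dimmer overall: over 11789 measured genes the log2 ratio, Venus-positive to Venus-negative, had a median of -0.33. Each ratio is therefore given on the deposited scale and as a relative log2 ratio, from which this median was subtracted.

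The pathway as a whole was close to level between the fractions, with exceptions in a few genes. On the deposited scale 30 of the 34 genes were within 1.5-fold, against 65.2% of all measured genes. Scd1 was the only one at least 2-fold higher, against 2.79% of all measured genes, and none was at least 2-fold lower, against 11.6%. With the log2 ratios of a gene's probe sets averaged, Scd1 was within 2-fold, and after centring on the median gene Elovl6 joined it. On the relative scale 28 of 34 genes lay above the median gene, against 50% by construction, and 52.96% of the 8390 genes that were at least as bright as the dimmest signal here on both arrays. The median relative log2 ratio of the 34 genes was 0.25, against 0.03 for those brighter genes. The count of 28 takes 1 probe set per gene, and 9 of the 20 genes with several measured ones had them on both sides of the median gene. Hmgcs1, counted as above at 0.06, had all its other probe sets below. By the relative ratio 6 genes stood at least 1.5-fold higher, Fdps, Lss, Srebf1, Scd1, Elovl6 and Fads2, which is 17.6% of the 34 against 12.1% of all measured genes. Abca1 and Abcg1 were at least 1.5-fold lower, which is 5.88% against 13.6%. Of the 8390 brighter genes, 11.6% were at least 1.5-fold higher and 9.03% lower. The counts of 6 and 2 rest mostly on values close to 1.5-fold. With 16 added to each signal in place of the floor, which also let dim genes enter the median, they were 2 and 1.

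**Figure D1:**
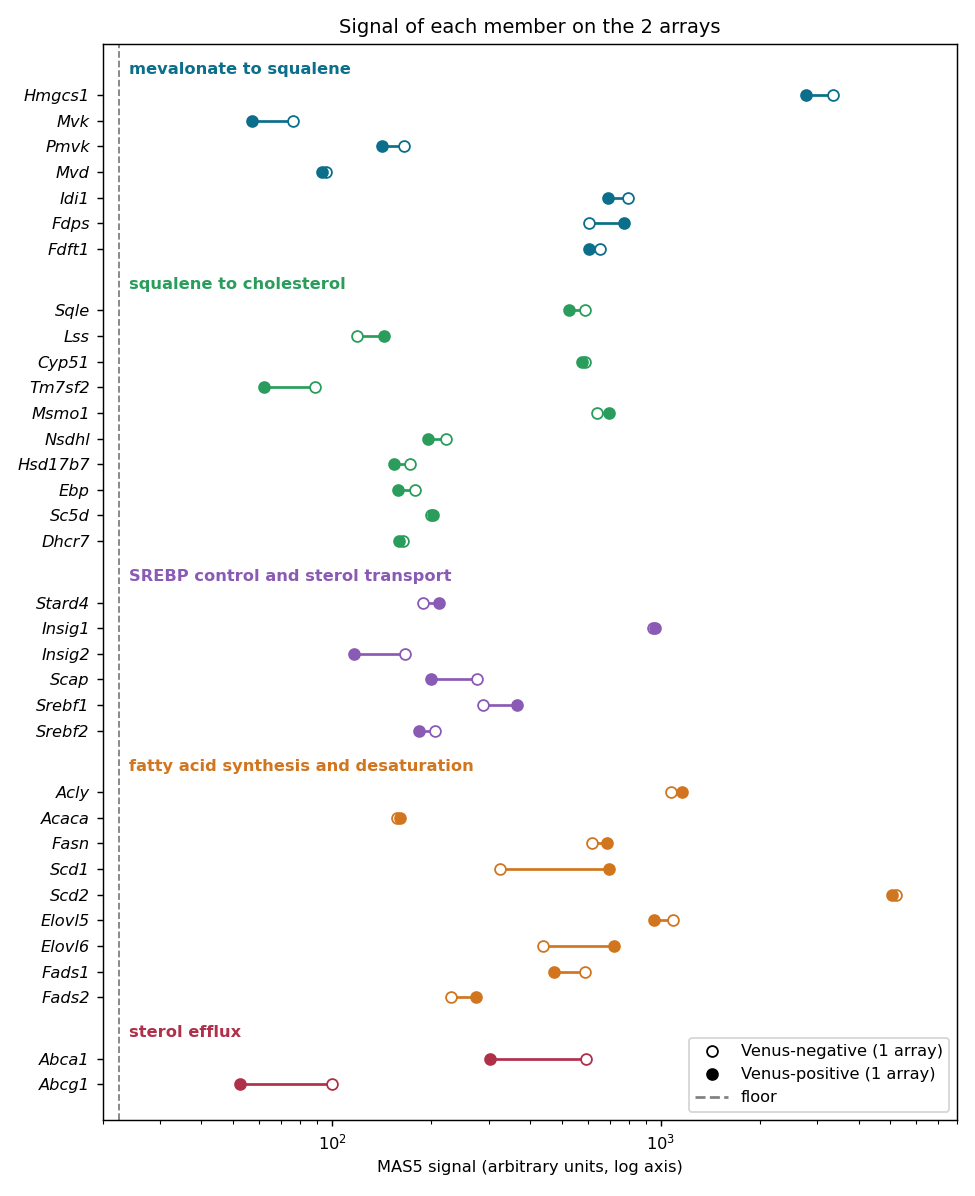
Signal of each of the 34 measured genes on the Venus-negative array (open circle) and the Venus-positive array (filled circle), on a log axis in arbitrary MAS5 units, grouped by branch, with the floor of 22.5 as a dashed line and 1 array per fraction. Most pairs nearly touch, whereas Scd1 (325 to 695) and Elovl6 (437 to 721) are wider with the Venus-positive signal higher, and Abca1 (593 to 302) and Abcg1 (100.1 to 52.3) are wider with it lower.

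Promoter sequences were available for 27 of the 35 genes, Acat2 among them, as the 250 bases before each RefSeq transcript start on assembly GRCm38.p6. They were searched on both strands for the core of the sterol regulatory element bound by SREBPs (TCACNCCAC), for CCAAT, the box bound by NF-Y, and for GGGCGG, bound by Sp1-family factors. CCAAT was found in at least 1 window of 20 of the 27 genes (74.1%), against 40.7% of 9520 measured genes with a window and 33.8% of all 32851 windows. GGGCGG was found in 22 of 27 genes (81.5%), against 65.3% of measured genes and 32.7% of windows. TCACNCCAC was found in Hmgcs1 alone, against 1.17% of measured genes and 1.05% of windows. Below are the 150 bases before the start, 5′ to 3′ on the gene's strand, with matches to any of the 3 motifs in capitals. They are shown for a sterol gene close to level (Hmgcs1), a fatty acid synthesis gene close to level (Fasn), a gene higher in the Venus-positive fraction (Elovl6) and a gene lower in it (Abca1).
Hmgcs1 (chr13:119690201-119690350, plus strand): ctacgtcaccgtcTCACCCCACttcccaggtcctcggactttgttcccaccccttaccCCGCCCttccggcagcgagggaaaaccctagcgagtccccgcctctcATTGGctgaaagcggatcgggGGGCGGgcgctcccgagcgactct
Fasn (chr11:120824548-120824697, minus strand): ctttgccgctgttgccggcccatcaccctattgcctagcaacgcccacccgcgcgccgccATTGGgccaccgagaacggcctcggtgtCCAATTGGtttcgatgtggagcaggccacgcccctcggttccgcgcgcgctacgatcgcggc
Elovl6 (chr3:129532236-129532385, plus strand): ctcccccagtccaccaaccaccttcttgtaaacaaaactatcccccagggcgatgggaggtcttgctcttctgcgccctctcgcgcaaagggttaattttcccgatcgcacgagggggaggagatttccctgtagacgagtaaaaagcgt
Abca1 (chr4:53159896-53160045, minus strand): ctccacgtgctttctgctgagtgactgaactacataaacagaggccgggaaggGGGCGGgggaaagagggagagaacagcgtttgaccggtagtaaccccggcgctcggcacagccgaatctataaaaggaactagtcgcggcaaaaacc
In these 150 bases Hmgcs1 holds 1 match to the sterol element core, 1 CCAAT box and 2 GGGCGG matches. Fasn holds 3 CCAAT boxes, of which a pair overlaps as CCAATTGG. Abca1 holds 1 GGGCGG match and Elovl6 holds none of the 3. A match describes the letters of the window only, and these arrays carry no measure of binding.

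The first branch runs from acetoacetyl-CoA to squalene, and its 7 measured genes were close to the median gene. Their median log2 ratio was -0.21 as deposited and 0.13 relative to the median gene, so its sign depended on the scale. Hmgcs1, the cytosolic HMG-CoA synthase whose promoter holds the sterol element core, had a signal of 3341 in Venus-negative and 2759 in Venus-positive cells, a log2 ratio of -0.28. Its 5 measured probe sets gave -1.01 to -0.28 on the deposited scale. None of them was higher in the Venus-positive fraction on that scale.

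The kinases and the decarboxylase that turn mevalonate into isopentenyl diphosphate had small differences. Mvk, mevalonate kinase, was at 76.1 in Venus-negative and 57.1 in Venus-positive cells, and its 2 probe sets were at log2 ratios of -0.41 and 0.08. Pmvk, phosphomevalonate kinase, was at 166 and 142. Mvd, the decarboxylase, was at 95.8 and 93.1, nearly level as deposited, with a relative log2 ratio of 0.29. All 3 were lower on the Venus-positive array as deposited, and Mvk alone of them was below the median gene. For scale, log2 ratios of probe sets of the same gene had a pooled standard deviation of 0.34 over 5445 genes, which comes from the same RNA and holds no error between samples.

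The isoprenoid enzymes that follow differed among themselves. Idi1, the isopentenyl diphosphate isomerase, was at 795 in Venus-negative and 689.7 in Venus-positive cells, with relative log2 ratios of 0.13 and -0.28 for its 2 probe sets. Fdps, which makes farnesyl diphosphate, the branch point to sterols and protein prenylation, was at 607 and 775. It was 1.28-fold higher in the Venus-positive fraction on the deposited scale and had a relative log2 ratio of 0.68, above 90.2% of measured genes. Fdft1, the squalene synthase and first step committed to sterols, was at 652 and 605, with a relative log2 ratio of 0.22, and its second measured probe set, at 376 and 396, gave 0.07 on the deposited scale. By the probe sets that stood for the genes, Fdps alone in this branch was above 0 on the deposited scale, on 1 measured probe set. Leaving out probe sets prone to cross-hybridisation, named _x_at or _s_at, put Fdft1 above 0 as well.

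The second branch, from squalene to cholesterol, was also near level. Over its 10 genes the median log2 ratio was -0.10 as deposited and 0.23 relative to the median gene, again with a sign that depended on the scale. The relative log2 ratios ran from -0.18 for Tm7sf2, a sterol C14-reductase (88.4 in Venus-negative, 62.1 in Venus-positive cells), to 0.60 for Lss, lanosterol synthase (119 and 143). Lss had 2 measured probe sets at log2 ratios of 0.18 and 0.27. Both put it higher in the Venus-positive fraction, on either scale.

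The oxidative steps around lanosterol sat between these. Sqle, squalene epoxidase and a rate-limiting step, was at 588 in Venus-negative and 526 in Venus-positive cells. Cyp51, lanosterol demethylase, was at 589 and 576, and its 3 probe sets gave log2 ratios from -0.31 to 0.01. Msmo1, the C4-methyl sterol oxidase, was at 639 and 694, with a relative log2 ratio of 0.45. Its second probe set, at 29.7 and 9.35, was below the floor in Venus-positive cells, so its relative log2 ratio was -0.07 or lower. No step of this stretch was past 1.5-fold on the relative scale by the probe set that stood for it.

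The last steps to cholesterol showed a similar range. Nsdhl and Hsd17b7, which finish the removal of the C4 methyl groups, were at 221 and 173 in Venus-negative and at 196 and 154 in Venus-positive cells. The 3 measured probe sets of Hsd17b7 disagreed, with log2 ratios from -0.43 to 0.32 on the deposited scale. Ebp, the sterol isomerase that is mutated in a human chondrodysplasia, was at 179 and 158, a relative log2 ratio of 0.15. Sc5d, the C5-desaturase, was at 200.5 and 203, with a second probe set at a log2 ratio of -0.66. Dhcr7, the final reductase of this list, was at 164 and 159, a relative log2 ratio of 0.29. All 5 of these genes were within 1.5-fold on both scales by the probe set that stood for them.

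Of the control genes, Srebf1 and Srebf2 differed in sign on the deposited scale, while both were above the median gene by the probe sets that stood for them. Srebf1, which encodes the SREBP mainly tied to fatty acid synthesis, was at 287 in Venus-negative and 366 in Venus-positive cells, a log2 ratio of 0.35 as deposited and a relative one of 0.68, above 90.2% of measured genes. Srebf2, whose product mainly drives sterol synthesis, was at 205 and 184, a log2 ratio of -0.16, with a second probe set at -0.57. The difference between the log2 ratios of Srebf1 and Srebf2 was 0.51. Such a gap between genes varies more than the standard deviation of 0.34 between probe sets of the same gene. With 1 probe set, the transcript forms of Srebf1 were not told apart.

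Among the sterol sensors, Insig1, itself an SREBP target, was at 949 in Venus-negative and 961 in Venus-positive cells and so level on the deposited scale. Insig2, whose transcription is less tied to SREBP, was at 166 and 116, and its 3 probe sets gave log2 ratios from -0.75 to -0.23, all lower in the Venus-positive fraction on the deposited scale. The Insig2 probe set at -0.23 lay above the median gene. By the probe sets that stood for them, the log2 ratios of Insig1 and Insig2 differed by 0.53, with the same limit on a gap between genes. Scap, the escort of SREBP to the Golgi, was at 277 and 200.1, a log2 ratio of -0.47 and a relative one of -0.13. Stard4, a cytosolic sterol carrier, was at 189 and 212, and its 3 probe sets gave log2 ratios from 0.04 to 0.66, none of them lower in the Venus-positive fraction. Over the 6 genes the median was -0.07 as deposited and 0.26 as a relative ratio.

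Fatty acid synthesis and desaturation was the only branch with a median above 0 on both scales, 0.11 as deposited and 0.44 relative, and all 9 of its genes lay above the median gene. The core enzymes differed little between the fractions. Acly, which supplies cytosolic acetyl-CoA from citrate, was at 1074 in Venus-negative and 1160 in Venus-positive cells. Acaca, acetyl-CoA carboxylase, was at 157 and 160.4, and Fasn, the fatty acid synthase, was at 617 and 688. Their relative log2 ratios were 0.44, 0.36 and 0.49, each within 1.5-fold of the median gene.

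The genes that elongate and desaturate the products held the largest differences. Scd1, the stearoyl-CoA desaturase that makes oleate, was at 325 in Venus-negative and 695 in Venus-positive cells, 2.14-fold higher, with a relative log2 ratio of 1.43, above 97.7% of measured genes. The other measured set, at 55.9 and 84.5, was at a log2 ratio of 0.60, so the size of this difference differed between probe sets while the direction did not. Elovl6, which elongates palmitate to stearate, the substrate of Scd1, was at 437 and 721, 1.65-fold higher, with a relative log2 ratio of 1.05, above 95.4% of measured genes. Its measured probe sets were at log2 ratios of 0.72 and 0.89. Under the 8 alternative settings together with the main one, the log2 ratio of Scd1 ran from 0.85 to 1.43 and that of Elovl6 from 0.70 to 1.05.

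Related enzymes had smaller ratios. Scd2, a second stearoyl-CoA desaturase, abundant in brain, was at 5213 in Venus-negative and 5047 in Venus-positive cells on the probe set that stood for it. Its dimmest probe set, at 33.4 and 57.1, gave a log2 ratio of 0.78. By the probe sets that stood for them, the log2 ratio of Scd1 exceeded that of Scd2 by 1.14. The dimmer Scd1 probe set, at 0.60, was below the dimmest of Scd2 but above the other 2 of Scd2. Elovl5, which elongates polyunsaturated fatty acids, was at 1089 and 953, and Elovl6 exceeded it by 0.92. Of the polyunsaturated fatty acid desaturases, Fads1 was at 589 and 474, with relative log2 ratios of 0.02 and -0.40 for its 2 probe sets, and Fads2 was at 229 and 274, with a relative log2 ratio of 0.59 and all 3 probe sets above 0 on the deposited scale. Fads2 exceeded Fads1 by 0.57 in log2 ratio. Of these 3 gaps, those of Scd1 and Elovl6 were the wider. The pooled standard deviation of 0.34 is that of probe sets of 1 gene, and a gap between 2 genes varies more than that.

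**Figure D2:**
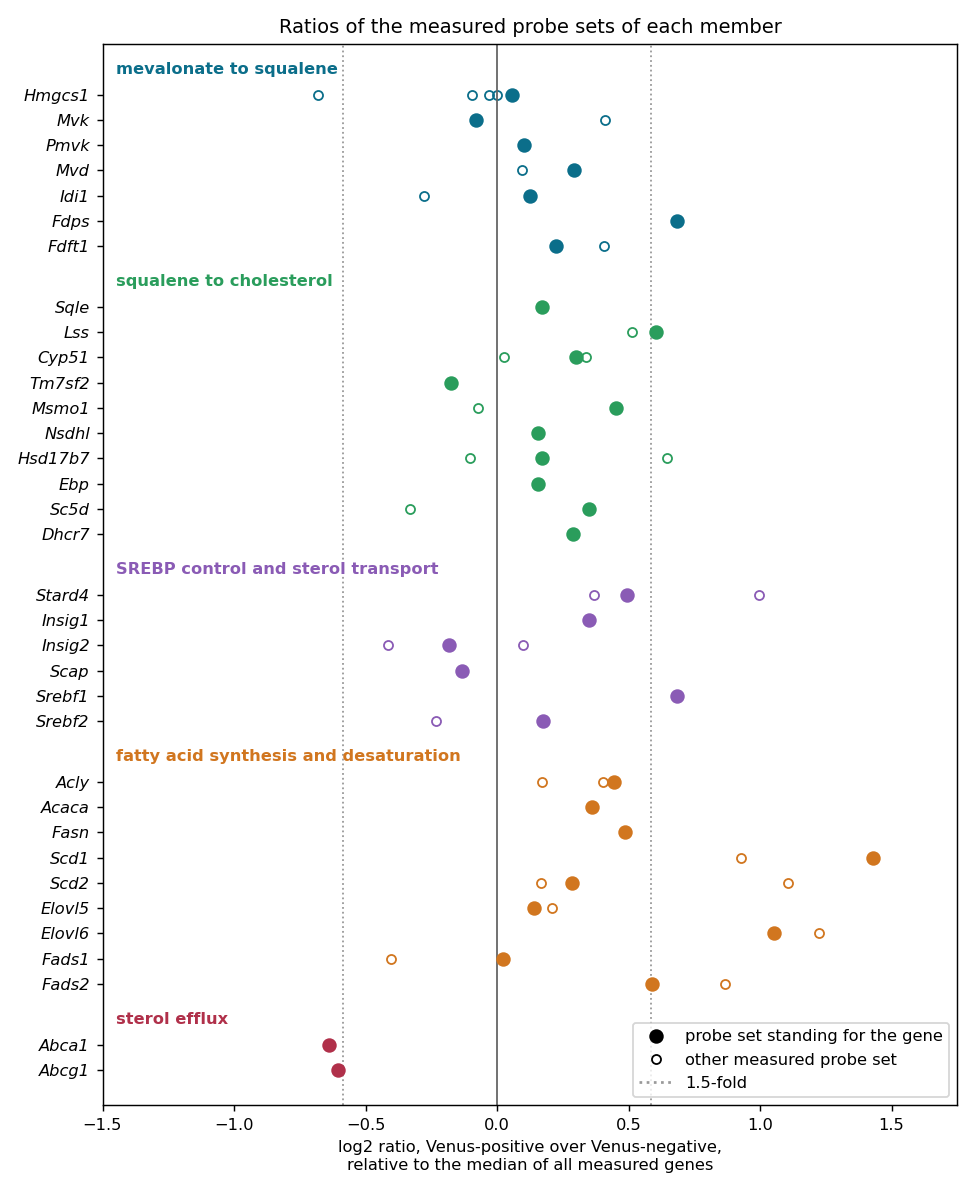
Relative log2 ratio (Venus-positive over Venus-negative, median of all measured genes at 0) of all 64 measured probe sets of the 34 genes, with the probe set that stands for the gene filled and the others open, and dotted lines at 1.5-fold. Of the 20 genes with several measured probe sets, 9 have them on both sides of 0. All measured probe sets of the others, Mvd, Fdft1, Lss, Cyp51, Stard4, Acly, Scd1, Scd2, Elovl5, Elovl6 and Fads2, lie above it.

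Both efflux transporter genes were lower in the Venus-positive fraction, on both scales. Abca1, which passes cholesterol to lipid-poor apolipoproteins, was at 593 in Venus-negative and 302 in Venus-positive cells, 1.96-fold lower, with a relative log2 ratio of -0.64. Abcg1, which passes sterols to lipoprotein particles, was at 100.1 and 52.3, 1.91-fold lower, with a relative log2 ratio of -0.61. Each rested on 1 measured probe set, the other probe sets being below the floor on both arrays, and 12.4% and 13.2% of measured genes had lower ratios. Macrophages express both transporters strongly, and their 10 markers had a summed signal of 2209 in Venus-negative and 182 in Venus-positive cells, with 7 of the 10 below the floor in the latter, among them Tyrobp, C1qa, C1qb and Ptprc. Such a sum follows the brightest probe sets, includes signals below the floor and does not measure the share of a cell type. Csf1r, the macrophage growth factor receptor, was at 758 and 48.0, and Mrc1, the mannose receptor, at 314 and 24.0. The part of macrophages in the transporter values was not tested.

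Markers of other lipid-synthesising cell types were given the same look, with the same limit on their sums. Of 6 adipocyte markers with a probe set, Adipoq, Cidec, Lep, Retn and the lipase gene Lipe (22.2 and 9.05) were below the floor on both arrays, and Fabp4 was at 32.2 in Venus-negative and 3.33 in Venus-positive cells. The 6 summed to 68.3 and 20.4, mostly from signals below the floor. The 7 hepatocyte markers summed to 406 and 91.1, with Afp at 223 and 9.67 and Alb at 109 and 14.7. Apoa1 was at 29.1 and 4.58, whereas Ttr went the other way, at 34.6 and 55.1. Apob, Fgb and Ahsg were below the floor on both arrays. The 8 epidermal markers, none of them particular to sebaceous cells, summed to 1804 and 436. Among them the desmosome gene Dsp was at 394 and 70.2 and the keratin gene Krt10 at 296 and 178. Schwann cell and glial markers summed to 1056 and 1700, of which Pmp22, a gene also expressed outside glia, made up 670 and 1420, while Erbb3 was at 186 and 164. Of the others, Sox10, a defining factor of that lineage, was at 16.7 and 41.0, Fabp7 at 107.8 and 43.8, Mbp at 48.2 and 28.1 and Foxd3 at 28.3 and 2.52. Another Mbp probe set was higher in the Venus-positive fraction, at a log2 ratio of 0.60. The median log2 ratio of this list was -0.25 as deposited and 0.08 relative to the median gene. The part of these cells in the fatty acid values was not tested.

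Further genes of the SREBP system were also near the median gene. Of 7 measured genes for SREBP cleavage and sterol-regulated protein degradation, 1 was at least 1.5-fold higher and none lower against the median gene, where 12.1% and 13.6% of all measured genes were, and their median relative ratio was 0.24 on the log2 scale. Mbtps2, the second protease that releases SREBP, was at 252 in Venus-negative and 301 in Venus-positive cells. Erlin1, a sterol-sensitive endoplasmic reticulum protein, was at 219 and 231, and the ubiquitin ligase gene Rnf139 was at 404.4 and 404.0. None of the 7 was past 1.5-fold on the deposited scale.

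A list of sterol uptake, esterification and oxysterol genes included members lower and 1 higher in the Venus-positive fraction. Soat1, the sterol esterification gene of the list, was not analysed here, so the values say nothing about that step. Of 8 measured, 1 was at least 1.5-fold higher and 3 were lower by the relative ratio, against 12.1% and 13.6% of all measured genes. The relative ratio's median on the log2 scale was -0.29. Scarb1, the receptor for high-density lipoprotein, was at 138 in Venus-negative and 221 in Venus-positive cells, and its probe sets gave log2 ratios from 0.68 to 1.04. Ch25h, which makes 25-hydroxycholesterol and is strongly induced in macrophages, was at 94.3 and 34.5, 2.73-fold lower. Cyp27a1, the sterol 27-hydroxylase, was at 47.6 and 24.3, and Mylip, a ubiquitin ligase acting on lipoprotein receptors, was at 609 and 313. Nr1h3, which encodes an LXR, was below the floor on both arrays, at 15.1 and 10.3. Nr1h2, the other LXR gene of the list, was not analysed here, so these values do not cover both LXR genes.

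The remaining fatty acid synthesis, elongation and activation genes were near the background. Of 14 measured, 1 was at least 1.5-fold higher and 2 were lower by the relative ratio, close to the 12.1% and 13.6% of all measured genes. The relative ratio's median on the log2 scale was 0.10. Me1, cytosolic malic enzyme and a source of NADPH for fatty acid synthesis, was at 109 in Venus-negative and 266 in Venus-positive cells, 2.45-fold higher, and its probe sets gave log2 ratios of 1.10 and 1.29. Acss2, which activates acetate, was at 94.1 and 42.4, 2.22-fold lower, with another probe set at a log2 ratio of -0.46. Acsl4, which activates arachidonate, was at 266 and 137, with a further probe set at a log2 ratio of -0.03. Among the pathway genes named here, Me1, Scd1, Elovl6 and Scarb1 had the highest relative log2 ratios, at 1.63, 1.43, 1.05 and 1.01.

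**Figure D3:**
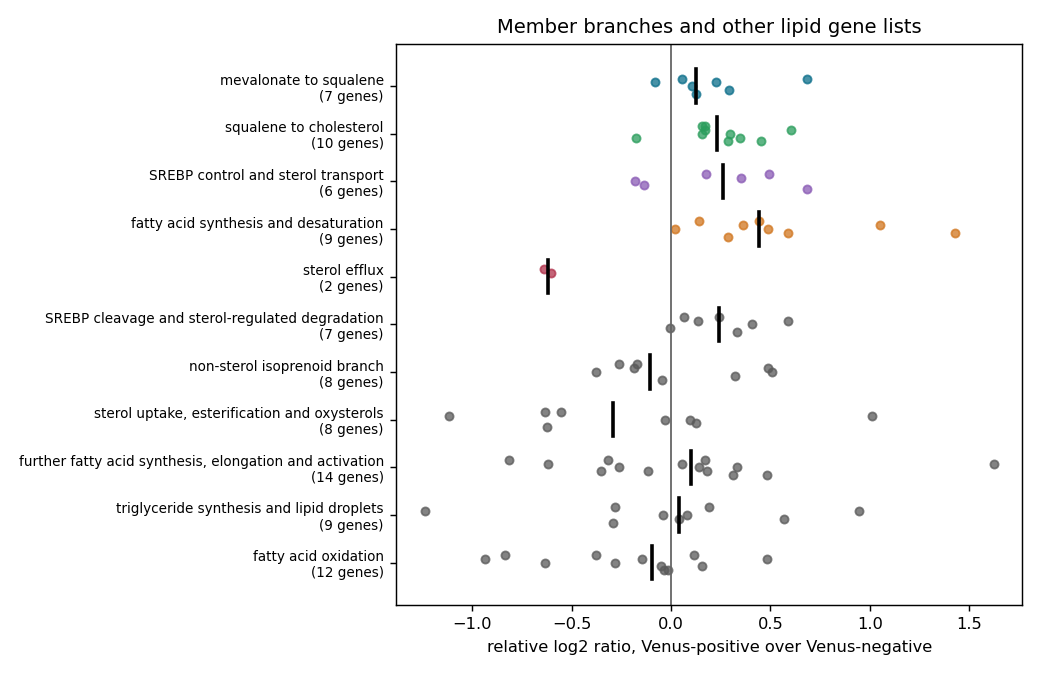
Relative log2 ratio of each measured gene (points) and the median (black bar) in the 5 branches and in 6 further lipid gene lists, with the number of genes in each. The branch of fatty acid synthesis and desaturation has the highest median, 0.44, and sterol efflux, with 2 genes, the lowest, -0.62.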

How the data were processed

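The 2 samples, 1 Venus-positive and 1 Venus-negative, were grouped by the cell type in their labels. According to the labels' protocols, 100 ng of total RNA was labelled per array. The deposited values are linear intensities made by the authors with MAS5, as the submitters' processing notes say. The sources used here give no version, scaling target or detection calls. MAS5 corrects perfect-match by mismatch probes, which makes low signals noisy. The number of arrays limits the precision.

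The 64 control probe sets were left out. Of the others, 34945 had 1 gene symbol, 932 several and 9160 none, and only the first were used. For all 34 genes found, identifier and symbol matched RefSeq. Signals below the floor were set to it before log2. Trimmed means (2% at each end) of the arrays were 133 (Venus-negative) and 109 (Venus-positive), and medians 26.5 and 19.0. Folds of 2 and 1.5 are sizes, not tests. All 34 listed genes with a probe set were named, with the 3 measured genes of largest absolute relative log2 ratio from each of 6 further lists. Of 8 marker lists, counts, sums and the 2 genes of highest signal are given. Mylip, Nr1h3, Ttr, Apoa1, Fabp7, Mbp, Foxd3, Sox9, Matn1, Sox10 and markers below the floor were named after their values were seen. Members and lists were chosen with earlier results of these data known. The 8 alternatives changed the scale, the floor or the probe set per gene. The procedure was tested on simulated data. Python 3.11.15, pandas 2.3.3, NumPy 2.4.6 and SciPy 1.17.1 were used.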

Additional observations from a re-analysis of the deposited data

How the results depend on the processing

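No paired analysis was possible because each fraction has 1 array, and no array could be left out. Of 80 summary values under the 8 alternatives, 74 moved by less than 0.34, the standard deviation between probe sets, or, for counts, by at most 1.5 times. The number of genes at least 2-fold higher, 1 as reported, was 2 after centring on the median gene and 0 with the mean over probe sets. The number at least 1.5-fold higher relative to the median gene, 6 as reported, was 2 without a floor, where 16 was added to each signal and dim genes entered the median. The number at least 1.5-fold lower, 2 as reported, was 1 there, 1 with quantile normalization and 1 with the floor at the 75th percentile, at which Abcg1 was not measured. Of 268 ratios of single genes, 8 moved by more than that standard deviation and none that was past 1.5-fold changed sign. Centring shifts every ratio by 0.33, just within that measure, and turned the sign of 15 of the 34 genes. Moving the floor leaves the ratios of genes above it as they are, so that alternative says little about them. Medians of the branches kept their sign on the relative scale under all 8. Centring cannot change a relative value, and scaling to control probe sets moved each branch median by nearly the same small amount. These alternatives therefore say little about relative values, although such values are counted among the 74. Scaling to 18 hybridisation control probe sets, whose median log2 ratio was -0.27, gave values between the deposited and the relative scale. Depth of signal limits Abcg1, Mvk and Tm7sf2 most, at 52.3, 57.1 and 62.1 on the Venus-positive array.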

Other observations

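Lists on the far side of lipid metabolism were measured too. Of 12 fatty acid oxidation genes, 3 were at least 1.5-fold lower and none higher by the relative ratio, against 13.6% and 12.1% of all measured genes. The relative ratio's median on the log2 scale was -0.10. Cpt1a, which controls entry of fatty acids into mitochondria, was at 116 in Venus-negative and 51.6 in Venus-positive cells, 2.24-fold lower, and its probe sets gave log2 ratios from -2.60 to -1.03. Cpt2, its partner on the inner membrane, was at 54.2 and 20.6, below the floor, and so at least 2.41-fold lower. Slc25a20, the carnitine carrier between them, was at 502 and 257, 1.95-fold lower. The remaining 9 genes were within 1.5-fold of the median gene. All 3 genes named belong to the carnitine shuttle and made up the whole of that step in the list, a grouping noticed after the values were seen.

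Triglyceride and lipid droplet genes showed no common direction, with 1 of 9 measured at least 1.5-fold higher and 1 lower, near the background of 12.1% and 13.6%, and a median relative log2 ratio of 0.04. Plin2, the coat protein of lipid droplets in most cells, was at 306 in Venus-negative and 103 in Venus-positive cells, 2.97-fold lower. Agpat2, an acyltransferase of glycerolipid synthesis, was at 84.8 and 129.6, and Lpin2, a phosphatidate phosphatase, was at 455 and 537, with another probe set at a log2 ratio of -0.51. Plin2 is expressed in macrophages, whose markers were also lower, and the part of that was not tested. Of 8 measured genes of the non-sterol isoprenoid branch none was past 1.5-fold relative to the median gene, against 12.1% of all measured genes higher and 13.6% lower. Zmpste24, a protease that processes prenylated lamin A, was at 255 and 288, and Pdss2, a ubiquinone side-chain synthase subunit, at 78.6 and 48.0. Dhdds, a dolichol synthase subunit, was at 73.6 and 82.1, with another probe set at a log2 ratio of -0.69.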
